A study of Mus musculus with 8 samples.

Results

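The 10 genes described here encode apolipoproteins, the protein part of the particles that carry lipid through the plasma: Apoa1, Apoa2, Apoa4, Apoa5, Apob, Apoc1, Apoc2, Apoc3, Apoe and Apoh. They were taken by name from 55304 annotated gene symbols, and they fall into 5 loci. Apoa1, Apoc3, Apoa4 and Apoa5 form a cluster on chromosome 9, Apoe, Apoc1 and Apoc2 form a cluster on chromosome 7, and Apoa2, Apob and Apoh stand alone. H3K27ac, the acetylation of a lysine in the tail of histone H3 that marks active promoters and enhancers, was mapped by chromatin immunoprecipitation with sequencing (ChIP-seq) in mouse primary hepatocytes (MPH). The cells came from adult wild-type male C57Bl6 mice and were kept in serum-free medium with either 1 µM thapsigargin or the solvent, 0.04% DMSO, for 4 h. Thapsigargin blocks the calcium pump of the endoplasmic reticulum (ER) and so causes ER stress (ERS). Each treatment has 3 H3K27ac libraries, from 3 hepatocyte preparations, and 1 input library.

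The data hold 32196 regions on the mm10 build in 3 lists, and each region has a position and a class but no signal. The authors called 3376 regions H3K27ac DOWN (less of the mark with thapsigargin), 5508 H3K27ac UP (more of it) and 23312 unchanged, in a fit that paired the libraries by mouse. Regions with a significant but mixed change were put in no list. No count or value per library was available, so the depth behind each class, its error and its size are not known, and no test was made here: the results are positions, widths and counts of regions. Unchanged means only that no change passed the authors' threshold, and a class describes the mark and not the RNA of a gene. In these bulk libraries, fewer cells with the mark and less of it per cell cannot be told apart. At 12261 genes at least 1 transcription start site (TSS) lay in a region, and these genes serve as the background. The hepatocyte label held: the 5 hepatocyte markers that could be looked up, of 6 chosen, all had a region at a TSS, against 0 of 4 stellate cell markers and 1 of 4 each for Kupffer cells (Cd68), endothelial cells (Stab2) and cholangiocytes (Sox9, in an UP region).

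Apolipoproteins hold lipoprotein particles together and direct their fate. ApoB is the structural protein around which the liver builds very-low-density lipoprotein, and ApoA1 and ApoA2 are the main proteins of high-density lipoprotein. ApoE is the ligand by which hepatocyte receptors take up remnant particles. ApoC2 activates lipoprotein lipase, the enzyme that removes triglyceride from particles in plasma, ApoC3 slows the clearance of triglyceride-rich particles, and ApoA5 favours their lipolysis. ApoC1 hinders the uptake of particles by receptors, and ApoA4 travels on particles made by the intestine as well as the liver. The hepatocyte is the main source of most of these proteins, and several of their genes arose by duplication and still lie side by side.

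All 10 genes had a TSS in an H3K27ac region. At 5 of them (Apoa1, Apoc3, Apoc1, Apoc2 and Apoe) this region was DOWN, against 8.91% of the 12261 background genes. At 1 gene, Apoa5, it was UP (background 21.4%), and at 4 (Apoa2, Apoa4, Apob and Apoh) it was unchanged (background 73.7%, where a gene with several TSSs may count in more than 1 class). No gene had TSSs in regions of different classes. The 5 DOWN genes are not 5 separate cases, since Apoa1 and Apoc3 share a region, which leaves 4 DOWN regions at 2 loci. By role, the ligand ApoE, the lipase activator ApoC2 and the inhibitor ApoC3 had DOWN regions, the lipolysis factor ApoA5 an UP region, and the structural protein ApoB an unchanged one. The high-density lipoprotein pair was split, with Apoa1 DOWN and Apoa2 unchanged.

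The sequences just upstream of 6 of these genes are shown because they are the starts at which the class differs: DOWN at Apoa1, unchanged at Apoa4 and UP at Apoa5 within a single cluster, DOWN at Apoe and Apoc2, and unchanged at Apob. They come from RefSeq promoter windows on GRCm38.p6 (the assembly of mm10), which matched 8 of the 10 genes. Each is printed 5′ to 3′ on the strand of the gene. It ends at the base before the first annotated start, except at Apoa5, where the RefSeq start (46268608) lies upstream of that start (46268633) and is used. Each lies whole in a region of the class just given. Capitals mark exact matches to a list of motifs searched on both strands, here a TATA box (TATAAA) at Apoa5 and Apob and a C/EBP motif (TTGCNNAA, read on the other strand) at Apob.
Apoa1, chr9:46228380-46228579, plus strand: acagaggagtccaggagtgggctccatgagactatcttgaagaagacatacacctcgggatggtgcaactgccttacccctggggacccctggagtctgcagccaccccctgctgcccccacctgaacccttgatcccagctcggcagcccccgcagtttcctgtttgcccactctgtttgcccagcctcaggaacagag
Apoa4, chr9:46240594-46240695, plus strand: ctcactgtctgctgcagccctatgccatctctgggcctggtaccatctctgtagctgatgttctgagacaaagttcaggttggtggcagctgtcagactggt
Apoa5, chr9:46268358-46268607, plus strand: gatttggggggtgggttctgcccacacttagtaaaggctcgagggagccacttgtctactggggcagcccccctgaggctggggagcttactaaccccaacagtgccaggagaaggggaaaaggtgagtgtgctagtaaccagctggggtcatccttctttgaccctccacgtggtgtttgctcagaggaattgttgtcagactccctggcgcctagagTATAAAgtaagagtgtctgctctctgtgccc
Apoe, chr7:19699189-19699438, minus strand: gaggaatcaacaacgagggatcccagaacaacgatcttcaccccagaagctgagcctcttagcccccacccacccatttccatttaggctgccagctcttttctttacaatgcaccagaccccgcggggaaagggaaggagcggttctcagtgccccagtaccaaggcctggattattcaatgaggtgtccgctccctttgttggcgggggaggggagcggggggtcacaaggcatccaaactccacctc
Apoc2, chr7:19677942-19678191, minus strand: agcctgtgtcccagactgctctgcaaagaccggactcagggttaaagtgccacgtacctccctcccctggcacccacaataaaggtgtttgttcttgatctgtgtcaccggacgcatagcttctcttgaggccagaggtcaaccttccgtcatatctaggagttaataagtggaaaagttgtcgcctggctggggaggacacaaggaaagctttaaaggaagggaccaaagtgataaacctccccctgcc
Apob, chr12:7977427-7977647, plus strand: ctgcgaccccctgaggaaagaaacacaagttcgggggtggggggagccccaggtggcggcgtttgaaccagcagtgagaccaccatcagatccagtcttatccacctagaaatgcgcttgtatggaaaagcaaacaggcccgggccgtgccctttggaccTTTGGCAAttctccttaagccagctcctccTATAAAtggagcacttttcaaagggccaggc

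Every region at the genes of the Apoe cluster was DOWN. Its 3 genes all lie on the minus strand, and with rising coordinate they are Apoc2 (chr7:19671579-19677941), Apoc1 (chr7:19689481-19692660) and Apoe (chr7:19696109-19699188). In the map of the cluster, 5 regions in a row are DOWN, and together they span 33903 bp (chr7:19669091-19702993), of which they cover 69.1%. The first is a narrow intergenic region of 1016 bp. The second, 6878 bp, holds TSSs of Apoc2, of its neighbour Apoc4 and of the annotated gene Gm44805, which spans both. The third, 4678 bp, is wholly intergenic, 4775 bp from the nearest TSS of the 3 genes. The fourth, 4502 bp, holds the TSSs of Apoc1, and the fifth, 6337 bp, those of Apoe and also takes in the 3′ end of Tomm40. The gaps between them are 5199, 855, 3280 and 1158 bp.

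**Figure D1:**
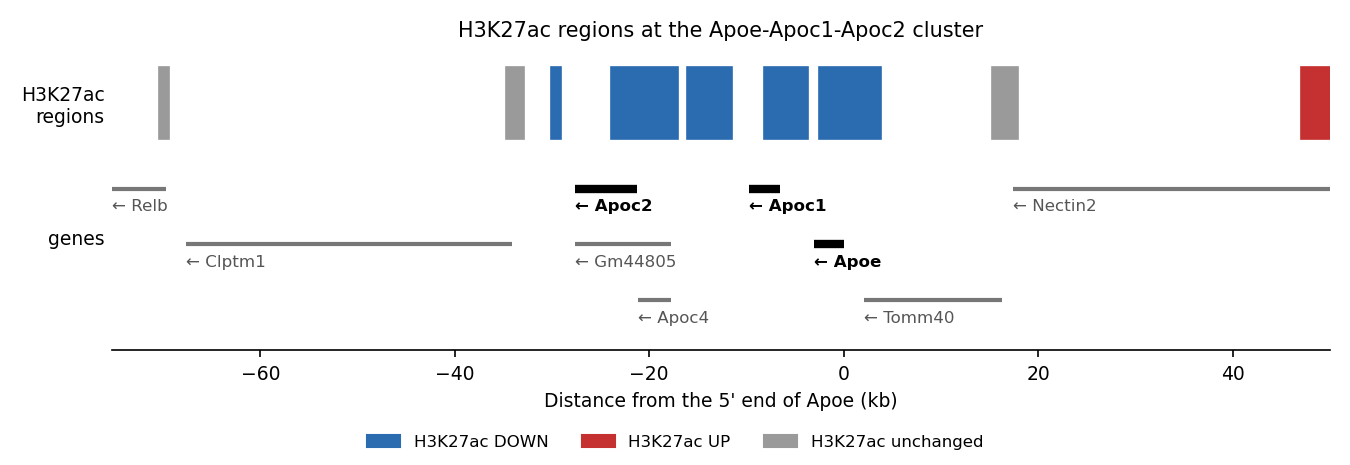
H3K27ac regions (bars, coloured by class) and protein-coding genes (lines, arrows give the strand) along the Apoe cluster, with distance from the 5′ end of Apoe in kb on the x axis. The 5 DOWN regions form an unbroken row over Apoc2, Apoc4, Apoc1 and Apoe, with unchanged regions on both sides and 1 UP region at the far right.

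The regions next to this row were unchanged. On the Apoc2 side the next region, 1899 bp at the TSS of Clptm1, was unchanged, as was one of 1075 bp at Relb. On the Apoe side the next, 2700 bp at the TSS of Tomm40, was unchanged too, although Tomm40 ends only 2124 bp from Apoe. An UP region of 4960 bp at Nectin2 lay 47018 bp from the Apoe TSSs. Rows of this length were rare among DOWN regions. Joining neighbouring DOWN regions at most 10 kb apart with no other region between them gave 2969 rows, most of them a single region. Of these rows, 3 held 5 or more regions (1 to 5 rows with gap limits of 6 to 20 kb). They hold 15 regions, or 0.444% of all DOWN regions. The others lay at Wwc1 on chromosome 11 and at the non-coding gene A730020M07Rik on chromosome 3. Apoe, Apoc1 and Apoc2 each had 5 DOWN regions within 50 kb of a TSS, a number reached by 61 background genes (0.498%), and 31.9% of background genes had at least 1.

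The gene bodies were covered to different degrees. DOWN regions took in 82.2% of Apoe, 52.3% of Apoc1 and 41.4% of Apoc2, and no region of another class touched these 3 genes. All 11 annotated transcripts of Apoe and all 4 of Apoc1 start inside a region, and 2 of 3 of Apoc2 do. The third Apoc2 start lies 1386 bp from the nearest region.

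The chromosome 9 cluster changed class along its length. Apoa1 (chr9:46228580-46230466, plus strand) and Apoc3 (chr9:46232933-46235636, minus strand) point towards each other with 2466 bp between them. Apoa4 (chr9:46240696-46243459, plus strand) starts 5060 bp from the 5′ end of Apoc3, and Apoa5 (chr9:46268633-46271919, plus strand) starts 27937 bp beyond Apoa4. Apoa1 and Apoc3 lay whole inside a single DOWN region of 14886 bp (chr9:46221572-46236457), and 98.8% of all DOWN regions were narrower, with 38 wider. Then came, after a gap of 1825 bp, an unchanged region of 3477 bp with the Apoa4 TSS. After a further 14123 bp an intergenic UP region of 6100 bp followed (chr9:46255883-46261982), and after 5640 bp an UP region of 6883 bp (chr9:46267623-46274505) that holds the TSSs of Apoa5, of Zpr1, a zinc finger protein gene, and of the annotated gene Gm47544. From the last DOWN base to the first UP base is 19425 bp.

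**Figure D2:**
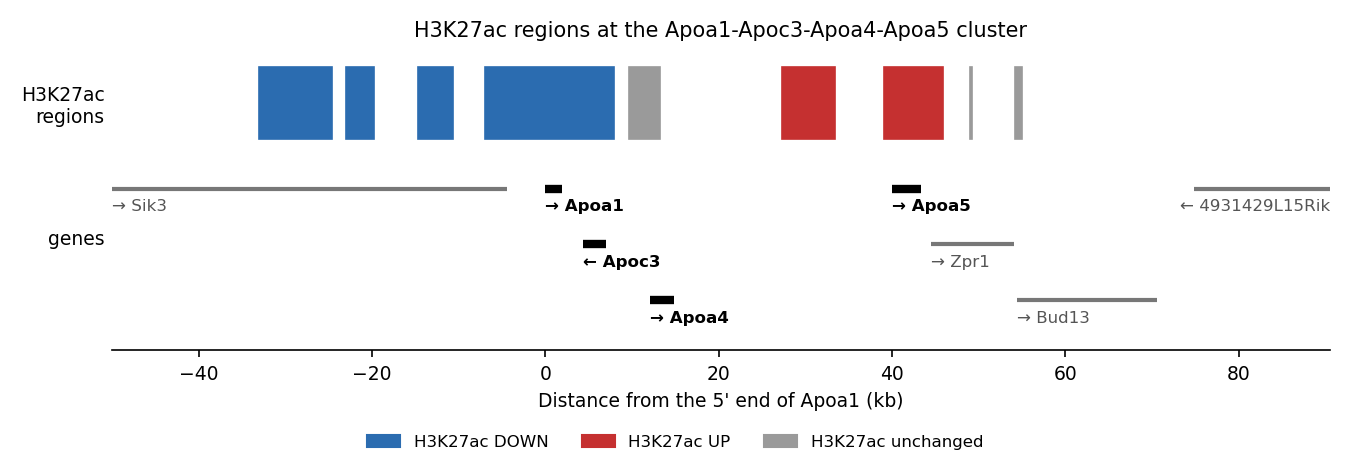
H3K27ac regions (bars, coloured by class) and protein-coding genes (lines, arrows give the strand) along the Apoa1-Apoc3-Apoa4-Apoa5 cluster, with distance from the 5′ end of Apoa1 in kb on the x axis. From left to right there are 4 DOWN regions over Sik3, Apoa1 and Apoc3, 1 unchanged region at Apoa4, 2 UP regions up to Apoa5 and Zpr1, and 2 narrow unchanged regions.

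The map of this cluster also shows that the DOWN side reached well past Apoa1 into Sik3, a kinase gene that ends upstream of Apoa1. Regions of 8416, 3141 and 3999 bp within Sik3 were DOWN, the last of them wholly intronic, and with the region at Apoa1 and Apoc3 they form a row of 4 that spans 40887 bp and covers 74.5% of it. Rows of 4 or more numbered 7 of the 2969 (3 to 16 with gap limits of 6 to 20 kb). Sik3 itself has a TSS 9009 bp from the nearest TSS of the cluster that lies in no region, and the only region at any of its TSSs was unchanged (3464 bp). Narrow regions within Zpr1 (323 bp) and at the TSS of Bud13 (776 bp) were unchanged.

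Starts in this cluster fell in all 3 classes. Apoa1, Apoc3 and Apoa4 each had 4 DOWN and 2 UP regions within 50 kb, although Apoa4 itself lay in an unchanged one, and 4 or more DOWN regions were found near 146 background genes (1.19%). Apoa5 had 1 DOWN and the same 2 UP regions within this distance. At least 1 UP region lay near 53.0% of background genes, and at least 2 near 21.4%. DOWN and UP regions together occurred near 2000 background genes (16.3%). The Apoa1, Apoc3 and Apoa5 genes were covered over 100% of their length. The region at Apoa4 reached over 38.5% of it, and the rest of that gene lay in no region. Both TSSs of Apoa5, used by its 6 transcripts, were in the UP region. The starts of all 5 Apoc3 transcripts and both of Apoa1 were in the DOWN region.

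Of the genes that stand alone, Apob (chr12:7977648-8016835, plus strand) had unchanged regions only. The starts of 3 of its 4 transcripts lay in a region of 5891 bp (chr12:7975874-7981764), wider than 97.8% of unchanged regions, and a second of 4314 bp began 996 bp further into the gene. The pair covered 21.5% of the gene, all at its 5′ end. The other 6 regions within 50 kb measured 215 to 1972 bp and were unchanged as well, so that 8 of 8 regions in this window were in the same class. The fourth transcript starts near the 3′ end, 25285 bp from the nearest region.

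Apoh (chr11:108343354-108414396, plus strand) encodes a phospholipid-binding plasma protein also known as beta-2-glycoprotein I. It had 5 unchanged regions and no other. The most upstream annotated start lies in a region of 1317 bp (chr11:108343124-108344440) which it shares, head to head, with Prkca, a protein kinase C gene. A second start lies in a region of 2097 bp (chr11:108394566-108396662) deep in the gene, where the RefSeq start of Apoh is also placed. The other 2 starts lie 4030 and 4035 bp from the nearest region. The 4 regions that overlap the gene, which include intronic ones of 1384 and 1235 bp away from any start, cover 8.17% of it. The remaining region, of 2748 bp, lies in Prkca and outside Apoh. Neither a DOWN nor an UP region within 50 kb, as at Apob and Apoh, was the case for 3845 background genes (31.4%).

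Apoa2 (chr1:171225054-171226379, plus strand) lay whole in an unchanged region of 4464 bp (chr1:171221979-171226442), wider than 95.3% of its class, which also holds a TSS of Tomm40l. It had 1 DOWN region nearby, an intergenic one of 1908 bp (chr1:171203164-171205071), 19983 bp from the Apoa2 TSSs. Between these regions lies an unchanged region of 1795 bp at the start of Nr1i3, the gene of the xenobiotic receptor CAR. The other 4 regions near Apoa2, of 566 to 1300 bp, were unchanged.

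**Figure D3:**
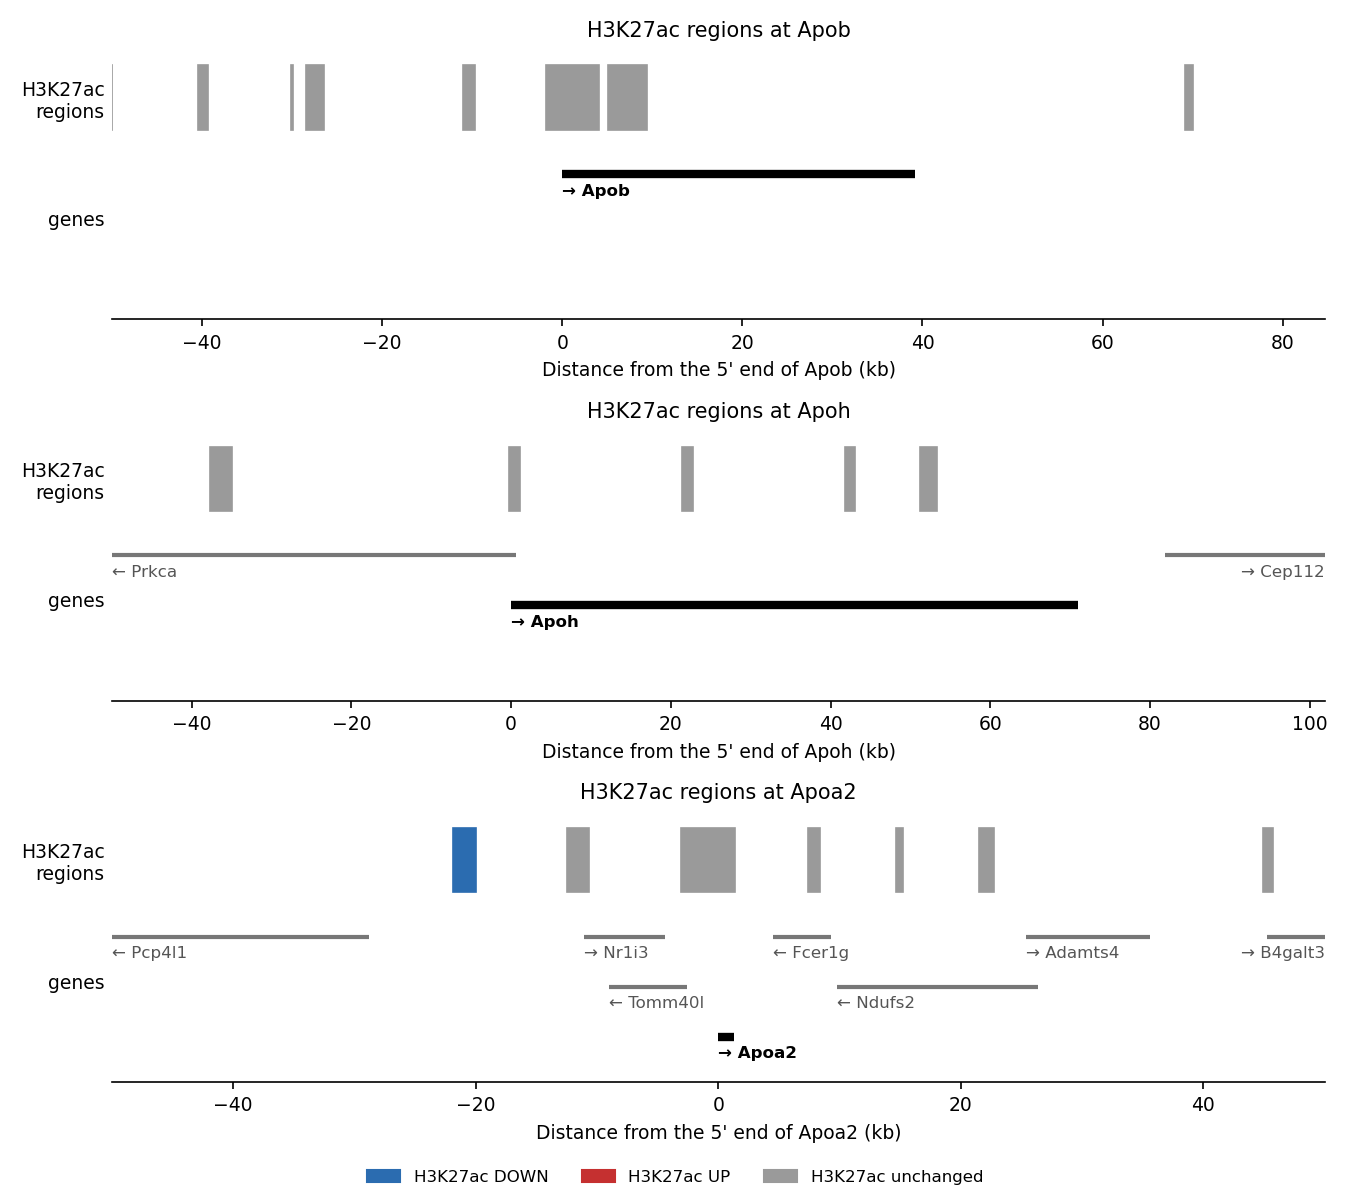
H3K27ac regions (bars, coloured by class) and protein-coding genes (lines, arrows give the strand) at Apob, Apoh and Apoa2, each with distance from the 5′ end of the gene in kb on the x axis. Of the 20 regions in the 3 panels 19 are unchanged, and the exception is a DOWN region upstream of Nr1i3 in the Apoa2 panel.

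Counted once each, 38 regions lay within 50 kb of a TSS of the 10 genes: 10 DOWN, 3 UP and 25 unchanged. Over all regions, 10.5% were DOWN and 17.1% UP. DOWN regions made up 76.9% of the 13 changed ones, with an exact (Clopper-Pearson) 95% interval of 46.2% to 95% that covers counting error only and treats neighbouring regions as independent, which they are not. Over all changed regions the share was 38.0%. All but 1 of the 10 DOWN regions lay in the clusters, as did all 3 UP regions. In base pairs, DOWN regions filled 21.7% of the window around the chromosome 9 cluster and 18.7% around the Apoe cluster, against 1.91% around Apoa2 and none at Apob and Apoh. UP regions filled 9.24% and 2.38% of the windows around the same clusters.

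The regions at the starts of the 10 genes were wide. The 4 DOWN ones measured 4502 to 14886 bp, all above the median of 3828 bp for the 928 DOWN regions that hold a TSS. The UP region at Apoa5, with 6883 bp, was above the median of 2136 bp for the 2047 UP ones. Of the 5 unchanged ones, 4 were above the median of 1530 bp for their class and the region shared by Apoh and Prkca was below it. Width and class moved together over all regions, since DOWN regions were the widest and unchanged ones the narrowest in the median. Among the 3395 background genes whose widest region at a TSS was at least 3 kb, the share with a TSS in a DOWN region was 21.7%, in an UP region 28.1% and in an unchanged one 59.4%. Of the 10 apolipoprotein genes, 9 are in this group and 5 of them were DOWN. The part of width in the class was not tested.

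**Figure D4:**
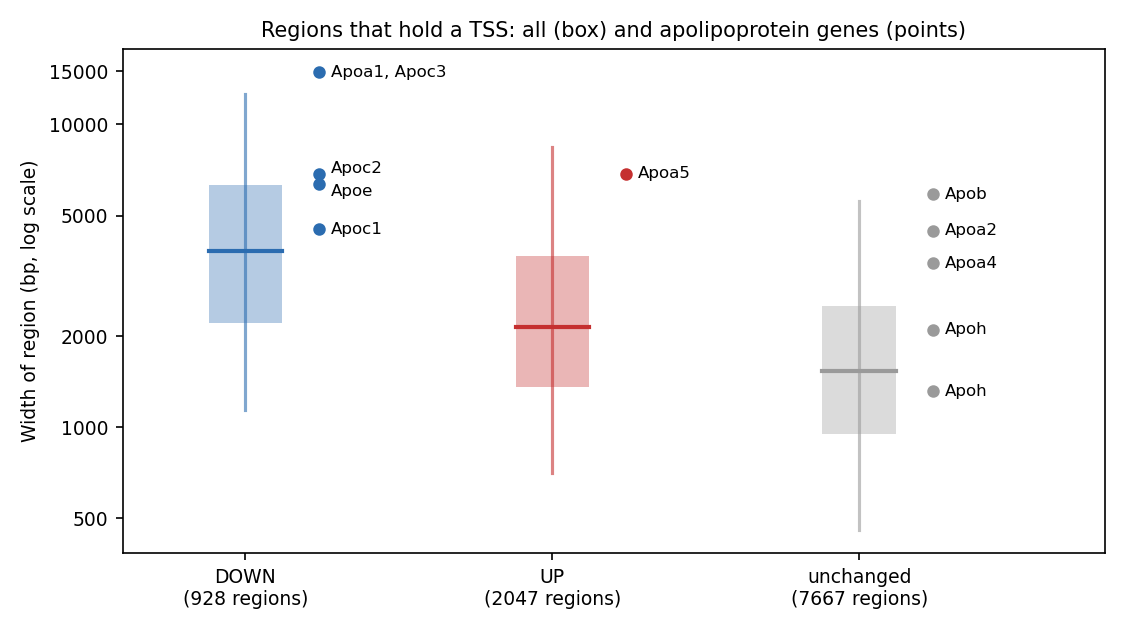
Width in bp (log scale) of the regions that hold a TSS, by class: boxes span the 25th to 75th percentile of all such regions with a line at the median, thin lines reach from the 5th to the 95th percentile, and points are the regions at apolipoprotein genes. The region shared by Apoa1 and Apoc3 lies above the 95th percentile of its class, as does that of Apob, and the lowest point belongs to Apoh.

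RefSeq gives 12 windows of 300 bp (250 bp before a start and 50 bp after it) for 8 of the genes, since some have more than 1 start. All 12 held fewer CG dinucleotides than the median of 13 over 21263 windows of protein-coding genes, with 1 at Apoa4 and at the upstream start of Apoa2 that lies in no region, 3 at the downstream start of Apoa2, 4 at Apoa1 and Apoa5, 5 at Apoh, 7 at Apoc2, 9 at Apob and up to 12 at Apoe. GC content ran from 44.0% at Apoh to 59.3% at Apoa1 around a median of 56.3%. At the Apoe start with 12, 49.1% of all windows held as few. The counts were 4 to 12 in DOWN regions, 4 in the UP region and 1 to 9 in unchanged regions, with no test of a difference.

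Distances here are counted from the RefSeq start of each window. The TATA box was found in 5 of the 12 windows (12.6% of all windows). It lay 31 bp before a start of Apoa5, 60 bp before that of Apob and 212 bp before that of Apoa2. The second Apoa5 window overlaps the first and holds the same site, so this site is counted in both. A window at an internal start of Apoe also had the motif. At Apob the RefSeq start (7977677) lies downstream of the first annotated start (7977648), just before which the printed sequence ends. The FOXA motif TGTTTAC was found in 3 (3.01% of all), 77 bp before a start of Apoa2, 71 bp before that of Apoh and at an internal start of Apoe. The C/EBP motif was found in 2 windows (10.2% of all), at Apob and at a second Apoa2 start that lies in no region, and the ATF4/CHOP motif TGATGNAA in 1 (3.60% of all), at an internal start of Apoe. The windows at the upstream starts of Apoa1, Apoe, Apoc2 and Apoa4 held none of the motifs searched. None of the 12 windows, which leave out Apoc1 and Apoc3, matched the HNF4 core CAAAGTCCA (0.451% of all), the D-box TTATGNAA (3.09%) or the cAMP response element TGACGTCA (2.23%). The ER stress response element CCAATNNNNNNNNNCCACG (0.141%) and the LXR element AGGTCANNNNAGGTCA (0%) were absent from them as well. A C/EBP match can also be a D-box match on the other strand, and a TATA box can overlap its own reverse. These counts are of letters and do not show binding.

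Away from the starts, the motif of ATF4 and CHOP, a pair of factors made during ERS, was found in DOWN, UP and unchanged regions. The intergenic DOWN region between Apoc2 and Apoc1 held 4 matches to it in 4678 bp, with 4 C/EBP and 3 D-box matches, 1 of which coincides with a C/EBP match, and no FOXA match. The intergenic UP region between Apoa4 and Apoa5 held 1, with 4 C/EBP, 2 FOXA and 1 D-box matches. The first match in each is shown with its surroundings on mm10, because the same letters stand in regions of opposite class, and the capitals mark the ATF4/CHOP motif and, in the DOWN region, a C/EBP motif downstream of it. The third sequence is from the unchanged region at Apob, upstream of the gene, with a C/EBP motif followed by the HNF4 core in capitals.
DOWN region between Apoc2 and Apoc1, chr7:19683813-19683963, plus strand: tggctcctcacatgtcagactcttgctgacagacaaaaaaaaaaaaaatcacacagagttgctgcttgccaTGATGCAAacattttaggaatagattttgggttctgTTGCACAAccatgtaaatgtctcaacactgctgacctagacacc
UP region between Apoa4 and Apoa5, chr9:46261683-46261833, plus strand: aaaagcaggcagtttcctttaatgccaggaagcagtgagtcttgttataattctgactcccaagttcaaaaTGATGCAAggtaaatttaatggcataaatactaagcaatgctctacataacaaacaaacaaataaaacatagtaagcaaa
Unchanged region at Apob, chr12:7977173-7977323, plus strand: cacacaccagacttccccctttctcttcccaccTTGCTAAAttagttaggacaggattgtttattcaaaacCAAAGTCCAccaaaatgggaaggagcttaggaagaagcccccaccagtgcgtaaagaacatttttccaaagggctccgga

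Over the 5 DOWN regions of the Apoe cluster there were 0.256 ATF4/CHOP matches per kb, over the 4 DOWN regions of the chromosome 9 cluster 0.164 and over its 2 UP regions 0.154. The highest value, 0.376, was that of the 8 unchanged regions near Apob, and the 6 unchanged regions near Apoa2 had 0.201. The UP region at Nectin2, the DOWN region near Apoa2 and the unchanged regions near Apoh and at both clusters held none. Over all DOWN, UP and unchanged regions the values were 0.147, 0.215 and 0.148 per kb. Each locus value above 0 rests on 2 to 6 matches. The HNF4 core, bound by a main activator of apolipoprotein genes, occurred 3 times in the 38 regions, each time in an unchanged region near Apob, which is 0.188 per kb there against 0.0265 per kb in all unchanged regions. It was found in none of the DOWN regions of either cluster, which hold 23411 bp (Apoe) and 30442 bp (chromosome 9). Over all DOWN regions it occurred 0.0279 times per kb, so few exact matches would fall in such lengths. Their absence does not show that HNF4 sites are missing there.

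Other genes of lipoprotein metabolism were looked up in the same way, in 5 lists of 57 genes that share none of the 10. A TSS lay in a region at 46 of them, in a DOWN region at 17 (37.0%), in an UP region at 10 (21.7%) and in unchanged regions only at 20 (43.5%), with Lrp1 counted both as DOWN and as UP. Each list can be read against the background of 8.91% DOWN and 21.4% UP, and the lists are small. Many of the DOWN genes in them have wide regions. Among background genes with a region of at least 3 kb at a TSS, 21.7% were DOWN and 28.1% UP. The part of width was not tested for the lists either.

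The 8 other apolipoproteins had 4 DOWN genes, no UP gene, 2 unchanged ones and 2 with no region. The DOWN ones were Apoc4, which lies in the region of Apoc2 already described, Apof (4727 bp) and Apon (4387 bp), which are neighbours on chromosome 10, and Clu (5070 bp), which encodes ApoJ. The unchanged ones were Apom and Apool.

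Of the 10 genes for the assembly and secretion of lipoproteins, 2 were DOWN, 3 UP, 3 unchanged and 2 without a region. UP regions lay at P4hb, the protein disulphide isomerase that is also a subunit of the microsomal triglyceride transfer protein (4652 bp), Surf4, a cargo receptor (3741 bp), and Mia2, which helps load large cargo (5072 bp, beside an unchanged region). DOWN regions lay at Pla2g12b (2391 bp) and Cideb (3245 bp), which act in lipidation of the particles. Mttp, the other subunit of the transfer protein, was unchanged, as were Tm6sf2 and A1cf, and Sar1b and Apobec1 had no region.

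In the list of plasma remodelling, 1 of 10 was DOWN, 2 were UP, 3 unchanged and 4 without a region. Angptl4, an inhibitor of lipoprotein lipase, had a DOWN region of 12320 bp. Lipc, hepatic lipase, had an UP region of 15850 bp.

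The 12 receptors and transporters held 3 DOWN and 3 UP genes, 5 unchanged ones and 2 without a region. Uptake receptors of remnant particles had DOWN regions: Lrp1 (11081 bp, with an UP region of 936 bp at another TSS), the syndecan Sdc1 (15891 bp) and Lsr (5117 bp). The other UP genes were Vldlr (686 bp) and Lrp8 (2241 bp), which encode lipoprotein receptors.

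Of 17 transcriptional regulators of apolipoprotein genes, 7 were DOWN, 2 UP, 7 unchanged and 1 without a region. The DOWN ones included Hnf4a (13466 bp), the bile acid receptor gene Nr1h4 (12673 bp, beside an unchanged region of 5773 bp at another TSS), Foxa2 (5650 bp), Foxa1 (5374 bp), Creb3l3 (3903 bp) and Nr2f2 (3438 bp). The UP ones were Cebpb (8393 bp) and the sterol regulator Srebf2 (3373 bp).

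**Figure D5:**
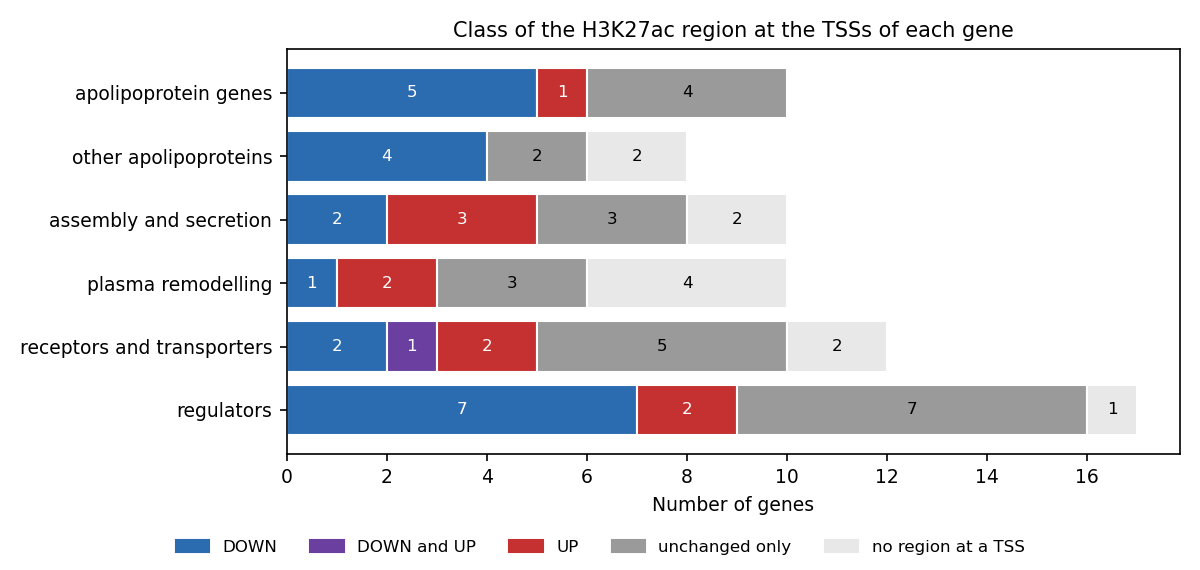
Number of genes with a TSS in a DOWN, UP or unchanged region, in both DOWN and UP regions, or in none, for the 10 apolipoprotein genes and the 5 lists of related genes. UP genes are absent only from the list of other apolipoproteins, and DOWN genes occur in every list.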

How the data were processed

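H3K27ac ChIP-seq libraries (3 per treatment, with 1 input each) were sequenced from MPH treated with thapsigargin or DMSO. Per the labels and the study's methods, the authors aligned reads to mm10 with Bowtie, removed duplicates and blacklisted regions, called broad peaks with MACS2 on the pooled libraries, and fitted 150 bp bins with csaw 1.6.1, paired by mouse. The deposited lists hold positions (chromosome, start, end), with no count, signal or p-value. A region was listed as changed at FDR 0.05 or below where bins of one direction outnumbered those of the other by a factor of 2 or more. Regions were read with 1-based starts and joined to the TSSs of GENCODE M21 transcripts (141730) when they overlapped, or lay within 50 kb. Genes within 50 kb of each other were treated as 1 locus. Scripts (Python 3.11.15, numpy 2.4.6, scipy 1.17.1) were tested on simulated regions. No statistical test was made. The genes named are the 10 apolipoprotein genes, changed neighbours and list genes in UP or DOWN regions; other names were chosen after their values were seen. The genes and lists were chosen with earlier results of these data known. Some list genes and a motif are counted or searched but not reported here by name.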

Additional observations from a re-analysis of the deposited data

How the results depend on the processing

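The class at each start did not depend on how regions were joined to genes in the alternatives tried: the counts of 5 DOWN, 1 UP and 4 unchanged genes were obtained under all 5 (protein-coding transcripts only, the 5′ end of the gene alone, a region within 1 kb, a region covering 500 bp on each side, regions of at least 1 kb). The count of regions followed the distance used, with 6 DOWN and 11 unchanged regions within 10 kb and 7 UP regions within 100 kb. The DOWN share of changed regions was 65.0% to 76.9% under the distance, width and base pair alternatives, and 71.4% to 85.7% when each locus was left out in turn. The background moved with the genes counted: DOWN was 8.31% of protein-coding genes and 1.97% of all annotated genes, UP 4.74% of the latter. Among genes with a region of at least 3 kb at a TSS, a choice made after seeing the data, DOWN was 21.7% and UP 28.1%. The gap limit for rows of DOWN regions was also set after seeing the data, and at 6, 15 and 20 kb there were 1, 4 and 5 rows of 5 or more and 3, 13 and 16 of 4 or more, against 3 and 7 at 10 kb. No paired analysis was possible because the lists give no measurement for single libraries, so leaving out each replicate was not run either. Without depth or signal, neither the size of a change nor its error is known.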
